A study of Mus musculus with 28 samples.

Results

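The Sox and Klf plasticity factors examined here are 9 transcription factor genes, the 4 Sox genes Sox4, Sox9, Sox11 and Sox13 and the 5 Klf genes Klf4, Klf5, Klf6, Klf8 and Klf10. An H3K27ac peak was given to one of them where its summit lay within 100 kb of, and nearest to, a protein-coding start site of that gene in the mouse build mm9. Of 893719 peaks in 15 libraries, 1315 met this rule, with 65 to 101 per library. Overlapping peaks of all libraries were merged, and 113 of 89050 merged regions belonged to the 9 genes, which are 9 of 22232 protein-coding genes in the annotation. A region with a summit, or a stretch, between 1000 bp before and 100 bp after a start site is called a promoter region, and 11 of the 113 regions were of this kind. The other 102 regions were distal. By the position of their summit, 86 regions were intergenic, 16 were intronic and 11 lay in an exon or an untranslated region.

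H3K27ac is an acetylated lysine of histone H3 that marks active promoters and active enhancers. Sox proteins bind DNA through an HMG box and Klf proteins through C-terminal zinc fingers, and members of both families govern progenitor states and differentiation in epithelia. Sox4, Sox9 and several Klf factors are known for roles in mammary epithelium and in epithelial to mesenchymal transition (EMT), the process in which epithelial cells lose their junctions and polarity and become motile, and genes of this kind often lie beside large distal enhancer landscapes.

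NMuMG cells, an untransformed mouse mammary gland epithelial line (subclone E9), undergo EMT under TGF-β. Untreated cells (0h) were compared with cells exposed for 4h or 24h to 2 ng/ml TGF-β, plus DMSO as the solvent control (4h, 24h) or plus 25 µM UO126 (ERKi 4h, ERKi 24h). UO126, an inhibitor of MEK, the kinase that phosphorylates ERK, was added 30 min before TGF-β. Each of the 5 conditions had 3 H3K27ac ChIP-seq libraries from the same subclone, so 1 cell line stands for the epithelium in every value below, and there was no condition with UO126 and no TGF-β. Nothing in the sample records says that replicates came from separate cultures, so p-values measure the spread between these libraries, which may be technical.

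The libraries held 50445 to 69180 peaks each, and no read totals are given in the peak lists. Regions were compared by the scaled summit pileup, which is the number of fragments covering the summit, solved from the deposited fold enrichment and p value of each peak and divided by a factor per library (0.767 to 1.36). Of 10 epithelial marker genes 4 (Cdh1, Krt8, Krt18 and Krt19) had a summit within 2500 bp of a start site in all 15 libraries, while Epcam, Cldn7, Esrp1 and Ovol1 had none in any. Within the promoter window itself only Krt8 had a peak in all 15. Of 7 mesenchymal markers 3 (Vim, Cdh2 and Col1a1) had a summit within 2500 bp in all 15 libraries, and in the promoter window Vim had one in 8 libraries, Cdh2 in 11 and Col1a1 in 0. None of 4 endothelial markers had a peak within 2500 bp in any library, and none of 6 haematopoietic markers had one in more than 4 libraries. In a bulk population, fewer acetylated cells and less acetylation per cell cannot be told apart.

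Among the members, Klf6 had the most regions (23, of which 15 had a peak in all 15 libraries) and Klf8 the fewest, with 1 region, 57.3 kb downstream of its start, that was called in 13 libraries. Klf4 had 17 regions (7 in all libraries), Sox13 and Klf5 14 each (3 and 5), Klf10 13 (6), Sox4 12 (5), Sox11 12 (1) and Sox9 7 (3). In total 45 of the 113 regions (39.8%) had a peak in every library, against 30.2% of all merged regions, and 25 were called in a single library. Sox11 and Klf8 had no promoter region in any library. Regions are named below by the distance in kb from their leading summit to the nearest start site of the gene, counted along the gene, so that "Sox4 +33.4 kb" lies downstream of a Sox4 start and "Sox13 -53.3 kb" upstream of Sox13.

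The sequences at the regions with the largest changes are shown first, 1 region per gene and kind of treatment, because the later results turn on these 6 regions. Each is the reference sequence of mm9 over 300 bases around the leading summit, on the + strand, and capitals mark matches to the motif words searched. Sox4 +33.4 kb (chr13:29009457-29009756), Klf6 +25.8 kb (chr13:5886335-5886634) and Klf10 -91.2 kb (chr15:38321480-38321779) had the largest changes with TGF-β. Sox9 +89.3 kb (chr11:112735236-112735535), Sox13 -53.3 kb (chr1:135374088-135374387) and Klf10 +21.8 kb (chr15:38207525-38207824) had the largest changes with ERKi. All 6 windows lie in intergenic sequence, with a GC content of 52.7% at Sox4, 44.0% at Klf6, 52.0% at Klf10 -91.2 kb, 47.0% at Sox9, 44.7% at Sox13 and 53.3% at Klf10 +21.8 kb.
Sox4 +33.4 kb: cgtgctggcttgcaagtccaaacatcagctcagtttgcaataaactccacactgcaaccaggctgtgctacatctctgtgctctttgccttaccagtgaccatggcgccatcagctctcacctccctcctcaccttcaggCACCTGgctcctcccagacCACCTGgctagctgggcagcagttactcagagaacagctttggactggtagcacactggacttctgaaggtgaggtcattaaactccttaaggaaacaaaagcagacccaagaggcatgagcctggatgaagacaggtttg
Klf6 +25.8 kb: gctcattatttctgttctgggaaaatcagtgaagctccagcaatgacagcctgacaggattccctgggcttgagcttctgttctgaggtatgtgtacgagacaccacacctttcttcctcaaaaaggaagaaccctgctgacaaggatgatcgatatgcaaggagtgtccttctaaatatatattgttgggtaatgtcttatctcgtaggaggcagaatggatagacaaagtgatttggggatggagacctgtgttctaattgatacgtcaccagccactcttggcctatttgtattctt
Klf10 -91.2 kb: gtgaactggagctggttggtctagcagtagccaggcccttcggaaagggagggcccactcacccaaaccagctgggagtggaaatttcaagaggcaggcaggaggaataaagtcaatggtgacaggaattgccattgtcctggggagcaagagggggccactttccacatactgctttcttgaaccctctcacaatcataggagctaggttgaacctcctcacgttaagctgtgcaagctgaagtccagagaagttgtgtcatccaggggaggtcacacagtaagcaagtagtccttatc
Sox9 +89.3 kb: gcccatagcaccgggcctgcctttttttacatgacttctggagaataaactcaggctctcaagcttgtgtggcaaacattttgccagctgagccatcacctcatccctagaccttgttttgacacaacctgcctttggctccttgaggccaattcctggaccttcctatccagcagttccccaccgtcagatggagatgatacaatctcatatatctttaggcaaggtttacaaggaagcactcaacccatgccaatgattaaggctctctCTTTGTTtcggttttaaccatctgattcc
Sox13 -53.3 kb: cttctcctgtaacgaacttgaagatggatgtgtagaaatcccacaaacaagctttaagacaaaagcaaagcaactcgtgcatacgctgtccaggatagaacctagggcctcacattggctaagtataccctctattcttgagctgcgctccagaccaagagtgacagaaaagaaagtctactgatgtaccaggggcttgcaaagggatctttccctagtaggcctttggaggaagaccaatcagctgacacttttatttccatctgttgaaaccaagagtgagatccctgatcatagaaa
Klf10 +21.8 kb: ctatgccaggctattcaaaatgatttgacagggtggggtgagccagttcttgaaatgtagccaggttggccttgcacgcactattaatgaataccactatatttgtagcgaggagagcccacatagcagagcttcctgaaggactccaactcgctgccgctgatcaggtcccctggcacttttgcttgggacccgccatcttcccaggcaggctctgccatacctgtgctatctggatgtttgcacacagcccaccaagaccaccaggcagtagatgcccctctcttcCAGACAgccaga

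The Sox4 window held 2 E-box words of the kind bound by Zeb and Snail factors, the Sox9 window 1 SOX word near its downstream end and the Klf10 +21.8 kb window 1 SMAD word, while none of the words was found in the windows of Sox13, Klf6 and Klf10 -91.2 kb. The words were searched on both strands in the 300 bases around every leading summit. They were AP-1 (TGACTCA or TGAGTCA), SMAD (GTCTAGAC or CAGACA), ETS (CCGGAAGT), RUNX (TGTGGTTT), TEAD (ACATTCCA), KLF (GGGGTGGGG or GGGTGTGGC), SOX (AACAATGG or AACAAAG) and E-box (CACCTG or CAGGTG). Some words can overlap each other, and a match is a run of letters, not a binding site. A SMAD word lay in 29 of the 113 member regions (25.7%) and in 28.0% of all regions with a full window. For the E-box the shares were 25 regions (22.1%) and 21.1%, and for AP-1 6 regions (5.31%) and 6.78%. A RUNX word lay in 9 member regions (7.96%) against 2.23% of all regions, and a TEAD word in 4 (3.54%) against 1.52%. KLF words were found in 6 member regions (5.31%) against 4.04%, SOX words in 6 (5.31%) against 8.77%, and ETS words in 0 against 0.612%.

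The first question was how acetylation at these genes moved during TGF-β-induced EMT. At 4h against 0h, 4 of the 45 member regions with a peak in all libraries had risen and 0 had fallen at an adjusted p under 0.05 (limma with a mean trend on the log2 pileup, Benjamini-Hochberg over the 26934 such regions of the genome). The rising regions were Sox4 +33.4 kb and the Klf6 regions at +25.8, +31.0 and +32.2 kb. Over all tested regions 3.47% had risen and 0.167% had fallen. At 24h, 7 member regions had risen and 0 had fallen, against 10.7% and 6.55% of all tested regions, so the share of the members that rose at 24h was of the same order as in the genome. The 7 were the same 4 regions, a further Klf6 region at +10.4 kb, and 2 Klf10 regions at -91.2 and -23.6 kb. All 7 were distal and intergenic. The median log2 change of the 45 regions was 0.13 at 4h and 0.23 at 24h, against -0.04 and -0.03 over all tested regions.

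Libraries that carry the same replicate number deviated together, and a fit with the replicate number as a block called more regions. With the block, 15 member regions had risen and 0 had fallen at 4h (17.1% of all tested regions changed in either direction), and 17 had risen and 4 had fallen at 24h (35.9% of all). The regions called without the block remained called with it. Among the regions that passed at 4h with the block alone were Sox4 +96.4 kb (0.55, adjusted p = 0.209 without and 0.0109 with the block, limma), Sox11 -89.4 kb (0.49, 0.4 and 0.0274), Klf10 -91.2 kb (0.47, 0.497 and 0.0305) and the Klf10 promoter regions at -0.8 and -0.1 kb (0.32 and 0.35). Klf6 -24.7, -23.6 and +9.7 kb rose with the block alone at 4h (0.40, 0.60 and 0.48) and at 24h (0.43, 0.55 and 0.54), and Sox4 -4.6 kb did at 24h (0.47, adjusted p = 0.177 without and 0.0316 with it, limma). Those that fell at 24h with the block alone were Sox4 +76.5 kb (-0.45, adjusted p = 0.392 without and 0.0281 with it, limma), Klf5 +65.4 kb (-0.45, 0.148 and 0.0318), Klf5 +0.3 kb and Klf10 +21.8 kb.

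Sox4, a SoxC factor known as a regulator of EMT downstream of TGF-β, carried the largest change among the called regions at both times, 33.4 kb downstream of its start (chr13:29008399-29011413, the first sequence printed above). The scaled pileup there was 51.6, 70.6 and 70.0 fragments in the 0h libraries and 161, 134 and 156 at 4h. It was 222, 164 and 233 at 24h. All treated libraries lay above all untreated ones, and the groups did not overlap. The log2 change was 1.24 ± 0.18 (SE) at 4h, with an adjusted p of 0.000563 (limma), and 1.69 ± 0.18 at 24h, with an adjusted p of 7.15e-06 (limma). Under ERKi the pileup was 119, 115 and 143 at 4h and 183, 157 and 210 at 24h, which lay above 0h in every library. The ERKi values overlapped those with DMSO at both times, and the log2 differences of -0.26 and -0.17 did not pass the test.

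A weaker region of Sox4 at +19.5 kb had a peak in 13 libraries and so stood outside the test in all libraries. At 0h it was called once, at 18.9 fragments. The pileup was 24.8, 27.8 and 41.9 at 4h and 51.9, 50.9 and 83.3 at 24h, where every library was above every 4h library. As 2 of the 3 libraries at 0h had no peak there, the main fit gave no change. With absent peaks filled at the 5th percentile, the log2 change at 24h was 1.99 ± 0.33 (adjusted p = 0.000565, limma). That value rests on filled 0h values. The promoter of Sox4 had a mean pileup of 174 ± 10.7 (SD, n = 3) at 0h and 190 ± 15.7 at 24h and was not called.

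**Figure D1:**
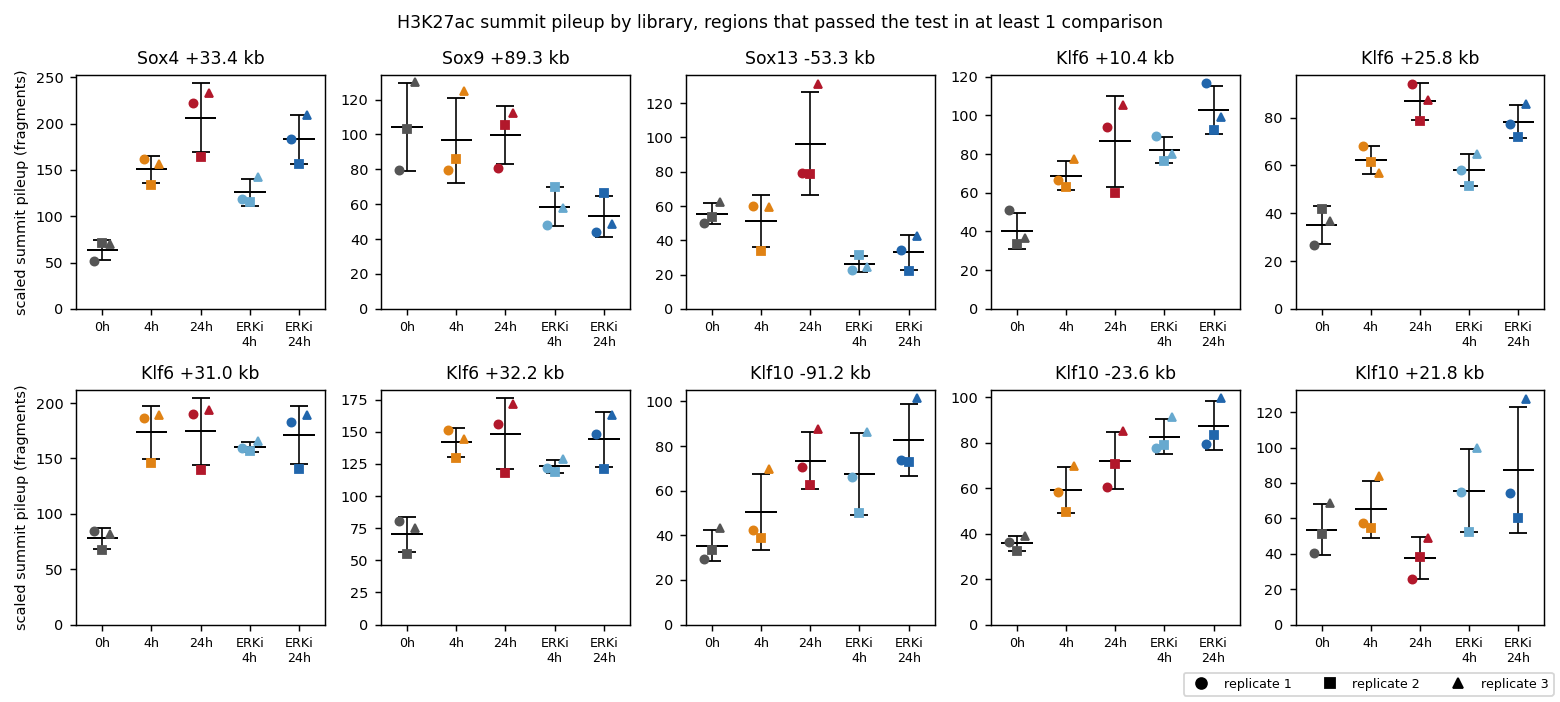
Scaled summit pileup (fragments, vertical axis) in each of the 15 libraries at the member regions that passed the test, with 1 panel per region, 1 column per condition and 1 symbol per replicate; lines give the mean and SD of 3 libraries. At Sox4 +33.4 kb the 0h libraries lie between 51.6 and 70.6 fragments and the 24h libraries between 164 and 233, and at Sox13 -53.3 kb the ERKi 24h libraries lie between 22.2 and 42.4 and the 24h libraries between 78.6 and 131.

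Sox11, the other SoxC member in the list, had 1 region with a peak in all libraries, at -89.4 kb. The pileup there was 41.3, 41.9 and 44.4 at 0h and 57.2, 46.3 and 80.2 at 24h. The 24h libraries lay above all 0h libraries but were spread widely, and the log2 change of 0.49 did not pass (adjusted p = 0.204 by limma; 0.0145 with the replicate block). The other 11 Sox11 regions had no peak at 0h and were called in 1 to 6 libraries, mostly in replicates 1 and 3.

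Sox9, a SoxE factor of stem and progenitor cells in the mammary gland, had its strongest distal regions at +72.6 and +89.3 kb. At +72.6 kb the pileup was 64.9, 89.8 and 117 at 0h, 87.7, 103 and 134 at 4h and 121, 141 and 166 at 24h. Every 24h library was above every 0h library. The log2 change at 24h was 0.69 ± 0.26, with an adjusted p of 0.0874 by limma and of 0.000584 with the replicate block. The promoter region rose from a mean of 132 ± 18.0 at 0h to 173 ± 2.12 at 24h only in the fit with the block (adjusted p = 0.137 without it and 0.0086 with it).

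Among the Klf genes, Klf6, which encodes a factor known to activate genes of the TGF-β pathway, held 4 of the 7 regions that rose at 24h, all within 10.4 to 32.2 kb downstream of its start. At +31.0 kb (chr13:5890795-5892035) the pileup was 84.1, 67 and 82.2 at 0h, 186, 146 and 189 at 4h and 190, 140 and 194 at 24h. The 4h and 24h libraries did not overlap with 0h and did overlap with each other. The log2 change was 1.16 ± 0.17 at 4h (adjusted p = 0.00063, limma) and 1.16 ± 0.17 at 24h (adjusted p = 0.000123, limma).

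The neighbouring Klf6 region at +32.2 kb moved from 80.4, 55.0 and 75.5 at 0h to 152, 129 and 144 at 4h and 156, 118 and 172 at 24h. It starts at chr13:5892223, close to the end of the +31.0 kb region at 5892035, so the calls need not be separate changes. Here too the rise at 4h was as large as at 24h (1.03 ± 0.18 and 1.08 ± 0.18, adjusted p = 0.00276 and 0.000393 by limma). At +25.8 kb (chr13:5886201-5887091) the pileup was 26.6, 41.9 and 36.6 at 0h, 68.2, 61.6 and 56.8 at 4h and 94.2, 78.6 and 87.5 at 24h. All 24h libraries lay above all 4h libraries, and all of those lay above 0h. Its log2 change was 0.85 ± 0.21 at 4h, with an adjusted p of 0.0251 (limma), and 1.33 ± 0.21 at 24h, with an adjusted p of 0.000214 (limma). The 4h call at +25.8 kb was lost without 0h replicate 1 (adjusted p = 0.15 by limma) and without 4h replicate 1, 2 or 3 (0.129, 0.0591 and 0.0624).

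At Klf6 +10.4 kb the pileup was 50.9, 33.5 and 36.6 at 0h, 66.5, 62.8 and 77.2 at 4h and 94.2, 60.1 and 105 at 24h. The groups with TGF-β lay above 0h without overlap. The log2 change of 1.08 ± 0.23 at 24h passed (adjusted p = 0.00235, limma), while that of 0.79 at 4h passed only with the block (adjusted p = 0.0634 without and 0.000466 with it). The Klf6 promoter region gave 130 ± 28.5 at 0h, 126 ± 8.55 at 4h and 131 ± 26.4 at 24h. Upstream, the strongest Klf6 region at -15.9 kb had a mean pileup of 194 (0h), 185 (4h) and 188 (24h). Neither was called for the response to TGF-β.

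Klf6 +51.4 kb, called in 12 libraries, had a single 0h peak of 15.5 fragments. It reached 53.2, 26.6 and 58.6 at 4h and 81.0, 57.8 and 94.8 at 24h. Under ERKi it gave 25.6 and 30.8 with no peak in the remaining library at 4h, and 41.7, 36.5 and 51.8 at 24h, below each 24h library with DMSO. A missing peak is not an absent signal, as the single 0h peak at Klf6 +3.7 kb stood at 92.2 fragments while the other 0h libraries had no call there.

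Klf10, whose product is also known as TGF-β-inducible early gene 1, had 2 distal regions that rose at 24h. At -23.6 kb (chr15:38252956-38254677) the pileup was 36.1, 32.3 and 38.9 at 0h, 58.5, 49.5 and 69.8 at 4h and 60.7, 70.5 and 85.4 at 24h. No treated library overlapped with 0h. The log2 change was 1.00 ± 0.20 at 24h (adjusted p = 0.00188, limma) and 0.72 at 4h (adjusted p = 0.0588 by limma, and 0.000498 with the block). With ERKi at 4h it gave 77.7, 78.9 and 91.5, above each DMSO library at 4h, a difference of 0.49 that passed with the block alone (adjusted p = 0.766 without and 0.0459 with it, limma).

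At Klf10 -91.2 kb (chr15:38320696-38322374) it was 29.5, 33.5 and 43.3 at 0h, 42.5, 38.7 and 69.8 at 4h and 70.4, 62.4 and 87.5 at 24h. The 4h libraries overlapped with 0h and the 24h libraries did not. The log2 change at 24h was 1.06 ± 0.27 (adjusted p = 0.00996, limma), and without 0h replicate 1 the adjusted p was 0.0535. The 2 promoter regions of Klf10 had means of 135 ± 16.0 and 195 ± 37.6 at 0h and of 169 ± 15.6 and 254 ± 15.5 at 24h. Their rises of 0.33 and 0.40 passed only with the block (adjusted p = 0.138 and 0.0905 without, 0.00745 and 0.0057 with it).

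Klf4 and Klf5, a pair of factors that control epithelial differentiation and proliferation, and Klf8, which is known as a driver of EMT, had no region that passed in the test without the block. The Klf4 promoter regions gave 130 and 118 at 0h and 125 and 99.6 at 24h. The strongest distal region of Klf4, at -10.1 kb, had means between 98 and 124 fragments in the 5 conditions. Klf4 -10.8 kb rose at 4h by 0.77 on the log2 scale with the block alone (adjusted p = 0.000995, and 0.197 without it). The Klf5 promoter region gave 146 ± 4.32 at 0h and 119 ± 12.8 at 24h, a change of -0.30 that passed with the block alone (adjusted p = 0.0455, and 0.185 without it). The 1 region of Klf8 gave 12.5 and 17.8 with no peak in 1 library at 0h, and 47.0, 27.8 and 30.7 at 4h. At 24h it gave 24.3 and 22.9 with no peak in 1 library, below each 4h library. The region could not enter the test in all libraries.

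Sox13, a SoxD factor, had no region that passed for TGF-β in the fit without the block. Its promoter region was the weakest of the promoter regions present in all libraries, with 35.2 ± 10.4 at 0h and 43.5 ± 10.9 at 24h. At -53.3 kb (chr1:135372983-135374774) the pileup was 50.2, 53.9 and 62.2 at 0h, 60.3, 33.8 and 59.6 at 4h and 79.2, 78.6 and 131 at 24h. The 24h libraries lay above all others with a log2 change of 0.76 against 0h, which had an adjusted p of 0.0871 by limma and of 0.00522 with the block.

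**Figure D2:**
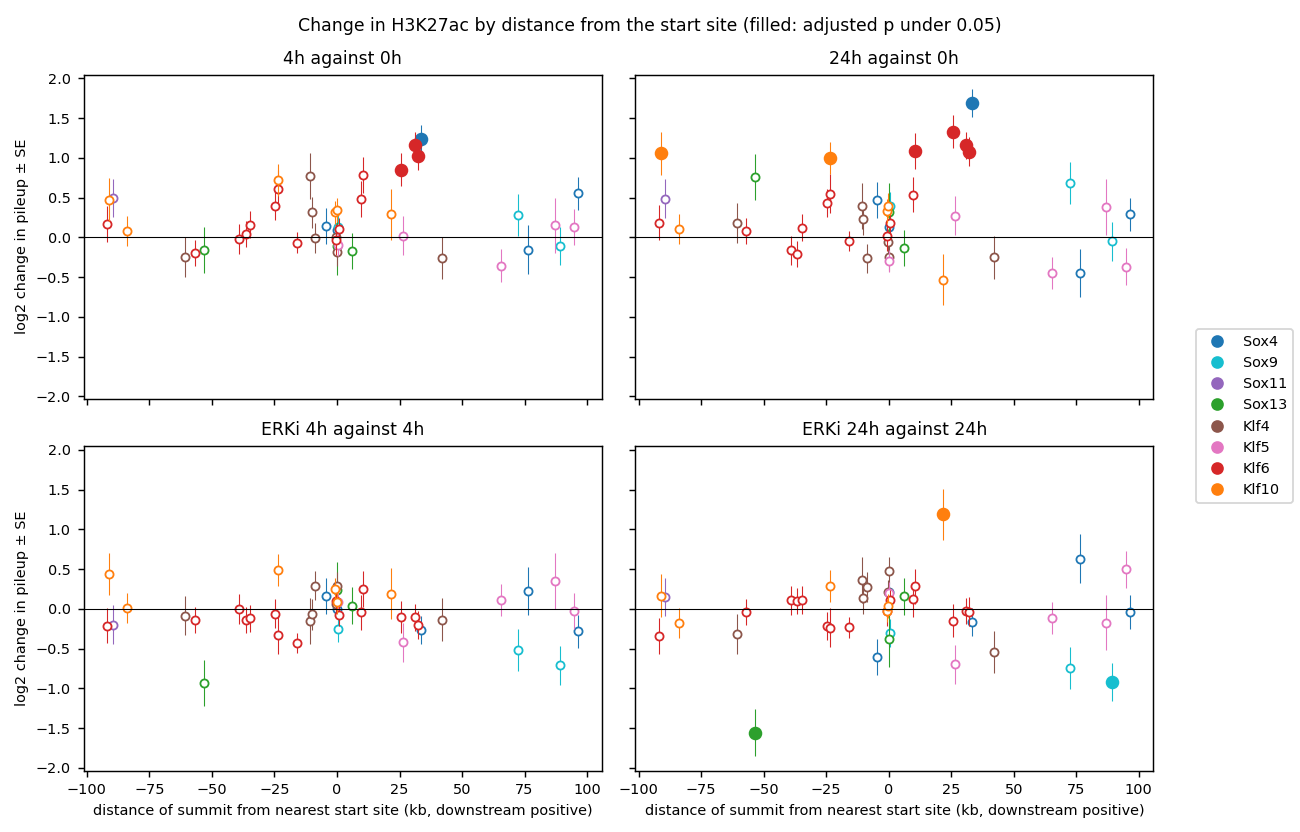
Log2 change of the scaled summit pileup (vertical axis) against the signed distance of the region from the start site of its gene (kb, horizontal axis) for the 45 member regions with a peak in all libraries, with 1 panel per comparison; colours stand for genes (Klf8 has no such region), bars are standard errors and filled points passed at an adjusted p under 0.05. The regions that rose with TGF-β lie between 10.4 and 91.2 kb from a start, and no promoter region passed.

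The second question was which of these marks depended on ERK signalling, compared at the same time of TGF-β with ERKi and with DMSO. At 4h, 0 of the 45 member regions passed (limma), 4 had an unadjusted p under 0.05, and 0.23% of all tested regions passed in either direction. With the replicate block 1 had risen and 4 had fallen at ERKi 4h (4.08% of all changed). At 24h, 1 member region had risen under ERKi and 2 had fallen, against 2.99% and 4.14% of all tested regions. With the block 4 had risen and 5 had fallen (27.4% of all changed). The block alone called Sox4 -4.6 kb lower at ERKi 24h (-0.61, adjusted p = 0.119 without and 0.00889 with it, limma). It called Sox4 +76.5 kb (0.63, 0.257 and 0.0038), the Klf4 +0.1 kb promoter region (0.48, 0.0998 and 0.00109) and Klf5 +94.8 kb (0.50, 0.231 and 0.0433) higher. The regions lower under ERKi at 24h were at Sox13 and Sox9 and the higher one was at Klf10, and none of the 7 regions that had risen with TGF-β at 24h passed.

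At Sox13 -53.3 kb the ERKi libraries gave 22.6, 31.3 and 24.7 at 4h and 34.2, 22.2 and 42.4 at 24h. All lay below the 24h libraries with DMSO and also below the 0h libraries (50.2 to 62.2). The log2 difference from DMSO at 24h was -1.56 ± 0.29 (adjusted p = 0.00372, limma), the largest among the called member regions with ERKi. The difference of -0.93 at 4h passed only with the block (adjusted p = 0.382 without and 0.00829 with it).

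At Sox9 +89.3 kb (chr11:112734602-112736436) the pileup was 81.0, 105 and 112 at 24h with DMSO and 43.9, 66.5 and 48.7 with ERKi. At 4h it was 79.8, 85.8 and 125 with DMSO and 48.2, 70.1 and 57.6 with ERKi. The ERKi libraries lay below the DMSO and the 0h libraries (79.7, 103 and 130) without overlap, while 0h and the DMSO libraries of both times overlapped with each other. The difference at 24h was -0.92 ± 0.24, with an adjusted p of 0.0276 (limma). It had an adjusted p of 0.0748 and 0.0821 without 24h replicate 2 or 3, and of 0.11 and 0.0863 without ERKi 24h replicate 1 or 3. At 4h the difference of -0.71 passed with the block alone (adjusted p = 0.528 without and 0.00578 with it).

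The other strong Sox9 region, at +72.6 kb, gave 76.6, 74.4 and 105 under ERKi at 24h. These lay below the 24h libraries with DMSO (121, 141 and 166). The log2 difference of -0.75 had an adjusted p of 0.103 by limma and of 0.000442 with the block, and that of -0.52 at 4h passed with the block alone (adjusted p = 0.98 without and 0.0455 with it). A like value was found at Klf5 +26.4 kb, where the means were 89.8 at 24h and 55.4 at ERKi 24h (-0.70, adjusted p = 0.0979 by limma and 0.000388 with the block). At Klf6 -15.9 kb the means were 185 at 4h and 137 at ERKi 4h (-0.43, adjusted p = 0.345 by limma and 0.00879 with the block).

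At Klf10 +21.8 kb (chr15:38207022-38208628) the order was the opposite. The pileup was 25.5, 38.2 and 48.9 at 24h with DMSO and 74.4, 60.0 and 127 with ERKi, while the 0h libraries gave 40.6, 51.5 and 68.9. The 24h libraries with DMSO were below all ERKi 24h libraries and overlapped with 0h. Their log2 difference from 0h, -0.53, passed with the block alone (adjusted p = 0.325 without and 0.0179 with it, limma). The difference with ERKi was 1.19 ± 0.32, with an adjusted p of 0.0316 (limma) and of 9.65e-06 with the block. Its adjusted p was 0.153 and 0.0592 without 24h replicate 1 or 2, and 0.0612 and 0.161 without ERKi 24h replicate 1 or 3. At 4h the pileup was 57.6, 54.4 and 83.8 with DMSO and 74.8, 52.6 and 99.7 with ERKi, which overlapped.

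The effect of ERKi at 24h was also set against that at 4h. No member region passed this test of the difference (limma), and 2 of 45 had an unadjusted p under 0.05, which is not read as a change. With the replicate block 1 region passed, against 3.93% of all tested regions. It was Klf10 +21.8 kb, where the ERKi effect was higher at 24h than at 4h by 1.00 ± 0.25 on the log2 scale (adjusted p = 0.0201 with the block and 0.91 without it).

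Klf10 -14.1 kb was called in 14 libraries, with 12.5 and 21.1 in the 0h libraries that had a peak, 15.0, 15.0 and 20.8 at 24h and 61.0, 48.3 and 86.4 at ERKi 24h. Every ERKi 24h library stood above every library with DMSO or without TGF-β. At -50.1 kb the ERKi 24h libraries gave 37.2, 32.6 and 43.2, and 1 of 3 DMSO libraries at 24h had a peak (19.8). At +28.2 kb they gave 33.5, 36.5 and 61.3, and the DMSO libraries with a peak at 24h gave 15.0 and 19.8. These regions lacked a peak in some libraries and were left out of the main fit. With absent peaks filled at the 5th percentile, the ERKi differences at 24h were 1.92 at -14.1 kb, 1.18 at -50.1 kb and 1.39 at +28.2 kb. All passed in that setting (adjusted p = 0.00227, 0.00816 and 0.0217, limma). At -50.1 and +28.2 kb they rest in part on filled 24h values.

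The measure behind these changes was examined at the same regions, because the pileup and the local background that the peak caller estimated around it moved together. At Sox4 +33.4 kb the background was 5.79, 6.67 and 6.81 fragments at 0h, 21.4, 18.5 and 22.5 at 4h and 33.8, 28.6 and 36.8 at 24h. It did not overlap between the 3 times and rose by 1.70 ± 0.16 at 4h (adjusted p = 0.000165, limma) and by 2.36 ± 0.16 at 24h (adjusted p = 5.2e-07, limma) on the log2 scale. These rises exceeded those of the pileup. The fold enrichment of pileup over background therefore fell, by 0.32 at 4h (adjusted p = 0.442, limma) and by 0.52 at 24h (adjusted p = 0.0124, limma).

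In 14 of 14 calls of member regions in the tests above the background moved in the direction of the pileup and itself passed the test. The same direction was found in 99.9% (4h), 99.7% (24h) and 99.7% (ERKi 24h) of all called regions. The fold enrichment had the opposite sign in 4 of 4 calls at 4h, in 4 of 7 at 24h and in 2 of 3 with ERKi at 24h. Over all called regions of the genome the opposite sign was found in 23.9%, 35.3% and 24.5% of calls. At the Klf6 regions +25.8, +31.0 and +32.2 kb the fold enrichment changed at 24h by -0.45, -0.35 and -0.36 (adjusted p = 0.188, 0.0808 and 0.0847, limma). It rose with the pileup at Klf6 +10.4 kb (0.26), Klf10 -91.2 kb (0.34), Klf10 -23.6 kb (0.36) and, with ERKi, Klf10 +21.8 kb (0.17), none of which passed. At Sox13 -53.3 kb the background fell by 1.84 on the log2 scale with ERKi at 24h and the fold enrichment differed by 0.10. At Sox9 +89.3 kb the fold enrichment differed by 0.34 (adjusted p = 0.199, limma). The part of the local background in these results was not tested further, and the control used at peak calling is not given in the sources used here.

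**Figure D3:**
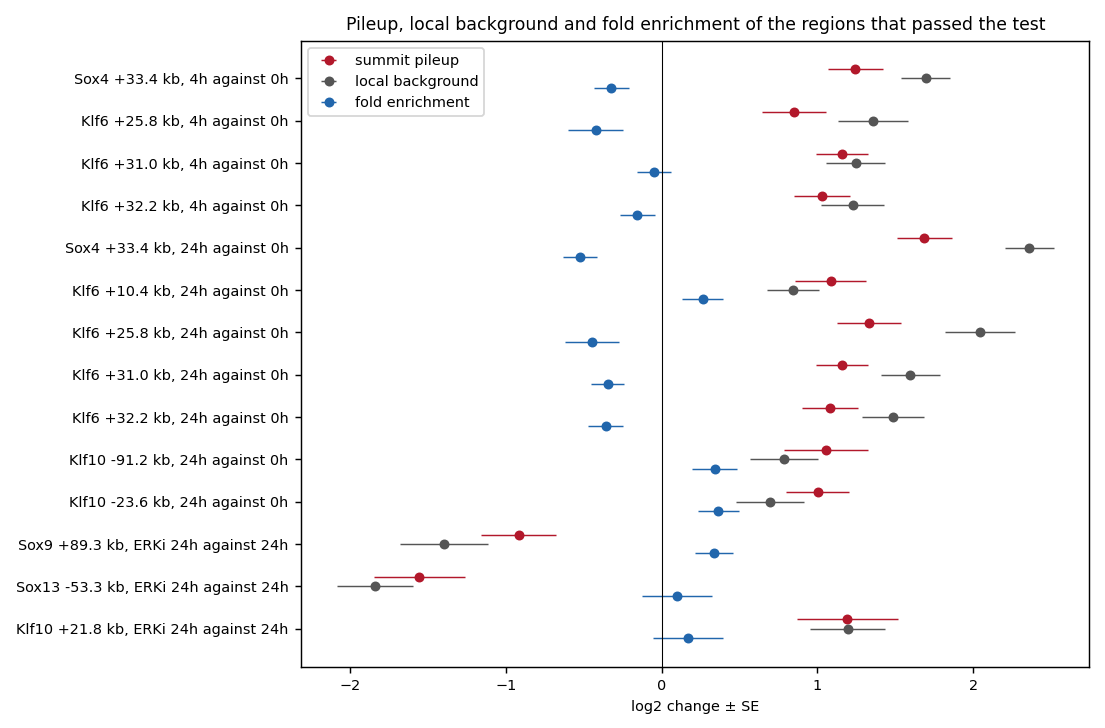
Log2 change of the summit pileup, of the local background and of their ratio, the fold enrichment (horizontal axis), at each called member region and comparison (vertical axis); bars are standard errors. At Sox4 +33.4 kb at 24h the pileup rose by 1.69, the background by 2.36 and the fold enrichment changed by -0.52.

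Regions without a peak in some libraries were also compared by calls. A region is named gained where all 3 libraries of a condition had a peak and none of the compared condition did, and lost in the opposite case. At 4h, 2 of 113 member regions were gained and 1 was lost, against 1.15% and 0.396% of all regions. At 24h, 3 were gained and 1 was lost, against 4.91% and 2.07%. With ERKi at 4h, 1 was gained and 0 were lost (0.221% and 0.314% of all), and with ERKi at 24h 0 were gained and 2 were lost (1.49% and 1.21%).

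Klf6 +25.3 kb was gained at both times. Its pileup was 47.9, 37.4 and 61.4 at 4h and 59.0, 62.4 and 80.2 at 24h, with no peak at 0h, and it was called in 5 of the 6 ERKi libraries. It ends at chr13:5886167, and Klf6 +25.8 kb, which had a peak in every 0h library (26.6, 41.9 and 36.6), starts at 5886201. The gained call thus lies beside a region already marked at 0h. Klf5 +25.1 kb was gained at 4h with 23.0, 31.4 and 25.1 fragments. Sox13 -47.1 kb (15.8, 27.8 and 16.7 at 24h) and Sox13 -74.8 kb (23.8, 16.2 and 24.0 at 24h) had no peak at 0h and were both gained at 24h and lost with ERKi at 24h. Sox13 -88.2 kb had a peak in the 0h libraries alone (10.3, 20.3 and 16.7) and was thus lost at both times. Klf5 +76.8 kb (11.8, 12.5 and 17.5) was called in the ERKi 4h libraries alone. Apart from Klf6 +25.3 kb these were weak peaks, with a mean percentile within their lists of 4.96 to 28.8.

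The peaks of each gene with a summit outside the promoter window (1000 bp before to 100 bp after a start site) were then summed per library, as the distal signal in scaled fragments, and tested on log2(signal + 10) over 14143 genes. This counts single peaks, not regions, so a peak such as that of Sox9 +0.4 kb, whose summit lies outside the window while its region reaches into it, is part of the signal although its region is named a promoter region above. The sum was therefore also made without any peak of a promoter region, a choice made after seeing the data. At 4h 0 of the 9 members passed (4 at an unadjusted p under 0.05), against 2.03% of all genes. At 24h 3 members had a higher distal signal, Sox4, Sox9 and Klf6, and 0 a lower one, against 12.1% and 4.45% of all genes. With ERKi at 4h 0 passed (1 at an unadjusted p under 0.05), against 0.0778% of all genes. With ERKi at 24h 0 were higher and 1, Sox13, was lower, against 1.26% and 2.13% of all genes. With the replicate block 0 members passed at 4h and 0 with ERKi at 4h (6.94% and 0.396% of all genes). Sox11 joined the 3 higher genes at 24h (25.4% of all), and with ERKi at 24h Klf10 was higher and Sox9 and Sox13 were lower (11.7% of all). Without the peaks of promoter regions 1 member passed at 4h (Sox4, higher), 4 at 24h (Sox4, Sox11, Sox13 and Klf6, all higher), 0 with ERKi at 4h and 2 with ERKi at 24h (Sox9 and Sox13, both lower). The share of all genes in this fit is not given here, so these counts cannot be set against it.

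The distal signal of Sox4 was 537, 410 and 559 at 0h, 879, 576 and 817 at 4h and 868, 1039 and 949 at 24h. Every library with TGF-β lay above every 0h library. The log2 change at 24h was 0.92 ± 0.18 (adjusted p = 0.00345, limma), and it passed with each library left out in turn. Without the peaks of promoter regions the signal was 263, 242 and 318 at 0h, 570, 480 and 558 at 4h and 750, 771 and 847 at 24h, in 3 groups without overlap. The log2 changes were then 0.95 ± 0.17 at 4h (adjusted p = 0.00315, limma) and 1.499 ± 0.17 at 24h (adjusted p = 1.35e-05, limma). With ERKi at 24h the sums without the peaks of promoter regions were 635, 694 and 756, a log2 difference of -0.18 from DMSO that did not pass. With those peaks included the ERKi 24h signal was 785, 1032 and 1096. Both sums overlapped with those of DMSO at 24h.

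For Sox9 it was 262, 345 and 373 at 0h and 424, 451 and 496 at 24h, without overlap (0.48 ± 0.15, adjusted p = 0.0486, limma). The call was close to the threshold. It was kept only without 0h replicate 3, 4h replicate 1 or 4h replicate 3, and with any 1 of the other 12 libraries left out the adjusted p lay between 0.0545 and 0.193. These sums include the peak of Sox9 +0.4 kb. Without it they were 145, 193 and 247 at 0h and 254, 278 and 321 at 24h, still without overlap, and the change of 0.55 ± 0.27 did not pass (adjusted p = 0.141, limma). With ERKi at 24h the Sox9 signal was 283, 329 and 288, below every DMSO library (-0.59, adjusted p = 0.0557 by limma, 0.00555 with the block). Without the +0.4 kb peak the ERKi 24h sums were 131, 141 and 164 and the difference of -0.92 ± 0.27 passed (adjusted p = 0.0467, limma).

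For Klf6 the signal was 1989, 1757 and 2601 at 0h and 2948, 3030 and 3007 at 24h, again without overlap (0.52 ± 0.17, adjusted p = 0.0479, limma). This call was kept only without 0h replicate 3 or 4h replicate 3, with adjusted p between 0.058 and 0.188 in the other 13 cases. ERKi at 24h gave 2887, 2625 and 2880, below all DMSO libraries but close to them (-0.10). Klf6 had the highest distal signal of the 9 genes in all 5 conditions, and the next in order, Sox4 or Klf4, reached at most 1096 fragments in any library.

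For Sox13 the signal was 272, 375 and 375 at 24h with DMSO and 182, 207 and 115 with ERKi, against 215, 263 and 260 at 0h. The ERKi 24h libraries lay below all 24h and 0h libraries. At 4h with DMSO the signal was 191, 179 and 168, which overlapped with ERKi 24h and also lay below all 0h libraries. With ERKi at 4h it was 199, 255 and 156. The log2 difference with ERKi at 24h was -0.998 ± 0.22 (adjusted p = 0.0282, limma). It had an adjusted p of 0.0778 without 24h replicate 2, of 0.0872 without 24h replicate 3 and of 0.103 without ERKi 24h replicate 3. Within 50 kb of the start sites alone it was -0.59 (adjusted p = 0.467, limma). Without the peaks of promoter regions it was -0.89 ± 0.22 (adjusted p = 0.0214, limma), and the rise at 24h against 0h was 0.61 ± 0.22 (adjusted p = 0.0465, limma).

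The distal signal of Sox11 was 41.3, 41.9 and 44.4 at 0h and 155, 46.3 and 270 at 24h. Replicate 2 stayed near the 0h level while the others rose, and the log2 change of 1.39 ± 0.51 did not pass (adjusted p = 0.0878 by limma, 0.0212 with the block, and 0.0415 without the peaks of promoter regions, of which Sox11 has none). For Klf10 it was 318, 338 and 514 at 24h with DMSO and 550, 714 and 775 with ERKi, without overlap (0.80 ± 0.25, adjusted p = 0.1 by limma, 0.0105 with the block). Without the peaks of promoter regions the Klf10 signal with ERKi at 24h was 550, 562 and 775. The difference was then 0.69 ± 0.26 (adjusted p = 0.118, limma). Klf4 and Klf5 had means of 537 to 672 and of 448 to 574 fragments in the 5 conditions, with groups that overlapped in each comparison. The Klf8 means were 13.5 ± 12 (0h), 56.2 ± 24.7 (4h) and 15.7 ± 13.6 (24h), the lowest of the 9 at these times.

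**Figure D4:**
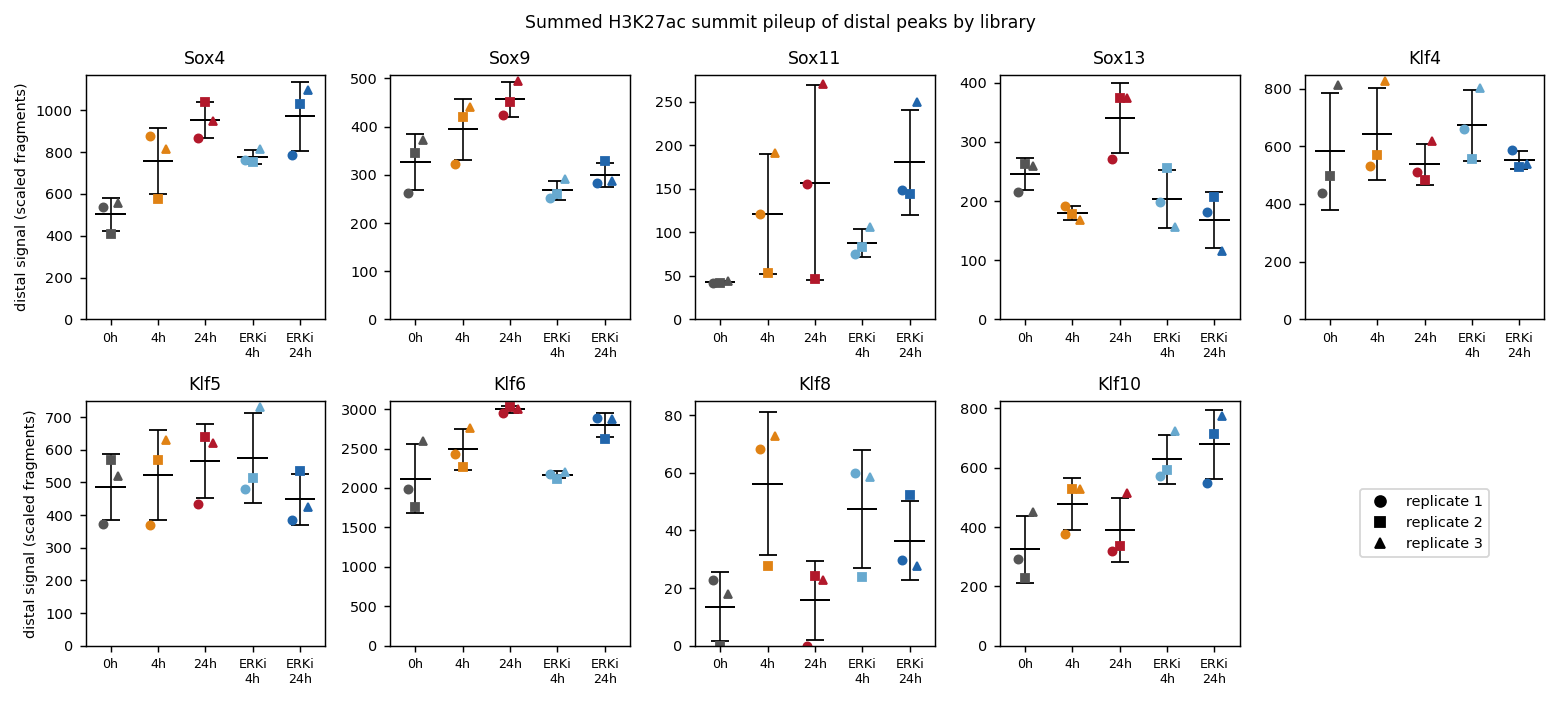
Distal signal, the summed scaled pileup of peaks with a summit outside the promoter window (fragments, vertical axis), of each of the 9 genes by condition, with 1 symbol per replicate and lines for the mean and SD of 3 libraries. The 24h libraries of Sox4 (868 to 1039) lie above its 0h libraries (410 to 559), and the ERKi 24h libraries of Sox13 (115 to 207) lie below its 24h libraries (272 to 375).

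The number of peaks outside the promoter window was counted in the same way. Sox4 had 7, 6 and 8 such peaks at 0h, 10, 9 and 9 at 4h and 11, 13 and 10 at 24h, so that both times stood clear of 0h. Sox9 had 3 in each 0h library and 5, 4 and 6 at 24h, and 1 fewer in each of these when the +0.4 kb peak is left out, and Sox13 had 7, 10 and 11 at 24h and 6, 5 and 3 at ERKi 24h. Over the 9 genes the counts did not overlap in 2 genes at 4h, 2 at 24h, 0 with ERKi at 4h and 1 with ERKi at 24h, against 5.25%, 16.4%, 2.42% and 7.1% of all genes. In an exact two-sided permutation test 3 libraries against 3 cannot give a p below 0.1, which 5 of the 36 pairs of gene and comparison reached, and the lowest adjusted p was 0.72. With the 4h and 24h libraries of ERKi tested jointly the lowest p was 0.17, for Sox9 (adjusted p = 0.945, exact permutation).

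The rest of the 2 families was read from a list of 15 further Sox and 12 further Klf genes, of which 9 Sox and 11 Klf genes had a distal signal that could be tested. At 24h 3 Sox genes and 1 Klf gene were higher and none was lower, against 12.1% and 4.45% of all genes. By single regions, 7 of 46 tested regions of these genes were higher at 24h and 7 were lower (at Klf3, Klf7, Klf15 and Sox17), against 10.7% and 6.55% of all tested regions, with a median log2 change of -0.11. With ERKi 0 of the 46 passed at 4h (0.23% of all), and at 24h 0 were higher and 1, at Klf16, was lower (2.99% and 4.14%). Klf3 had a lower distal signal at 24h with the replicate block alone (-0.34, adjusted p = 0.197 without and 0.0123 with it, limma), where 25.4% of all genes changed. Sox10, a factor of neural crest and of some mammary progenitors, went from 15.9 ± 5.44 at 0h to 137 ± 30.2 at 4h and 162 ± 84.0 at 24h, with log2 changes of 2.51 and 2.62 (adjusted p = 0.0106 and 0.00131, limma). Sox8, of the same SoxE group as Sox9, went from 48.8 ± 37.9 at 0h to 244 ± 71.0 at 24h (2.25 ± 0.53, adjusted p = 0.00986, limma). Sox14 rose by 1.09 ± 0.29 on the log2 scale at 24h (adjusted p = 0.0187, limma). Klf12, the Klf gene among the 4, had no distal peak in any 0h library and 37.1 ± 16.9 fragments at 24h. It entered the test through the groups with peaks, so that its change from 0h could only be upward. By distal signal none of the 20 genes passed with ERKi at either time without the block. With it Sox6 (0.93, adjusted p = 0.0595 without and 0.00862 with it, limma) and Klf11 (0.49, 0.135 and 0.0452) were higher with ERKi at 24h. In that fit 11.7% of all genes changed in either direction. The median log2 change at 24h was 0.68 for the further Sox genes and 0.14 for the further Klf genes, against 0.44 for the 9 members and 0.03 over all genes.

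Sox11 had the largest change in distal signal between 0h and 24h among the members, and the genes most like it in their pattern over the 5 condition means were Trim40, Enpp1 and 1700034J05Rik. Their root mean square differences from Sox11 were 0.0659, 0.0874 and 0.0963 on the log2 scale, out of 14142 other genes. The means of Sox11 rest on widely spread replicates, and likeness over 5 condition means is a description.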

How the data were processed

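The data comprised 15 H3K27ac ChIP-seq libraries of NMuMG cells, with 3 replicates in each of 5 conditions taken from the sample records. The other 13 samples of the series (RNA-seq and input) were not analysed here. The authors mapped the reads with Bowtie (mm9) and ran MACS2 on each library with default parameters, and the control used at that step is not given in the sources used here. The deposited lists hold the fold enrichment (ratio) over a local background and p and q values as -log10, as well as a score, which the authors' caller derives from -log10 q in whole numbers and which was not used. No read totals are given, so the depth is unknown and no counting interval was computed.

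Each peak's pileup and background were solved from 2 equations, fold = (pileup + 1) / (background + 1) and the Poisson tail for -log10 p, to within 0.005 for all but 25 of 893719 peaks, and divided by a median-of-ratios factor per library. Peaks overlapping by at least 1 bp were merged into 89050 regions (median width 592 bp). Start sites, genes and sequence came from GENCODE vM1 and the same assembly (mm9). The 26934 regions with a peak in every library, and the distal signal of 14143 genes with a distal peak in at least 3 libraries, were fitted with limma 3.58.1 (R 4.3.3), with a mean trend, over the 5 conditions together. Benjamini-Hochberg adjusted p-values run over all regions or genes. Counts of members at an unadjusted p under 0.05 are given without the share of all regions or genes and are not read as changes. The steps were tested on simulated data. Other steps ran in Python 3.11.15 (pandas 2.3.3, NumPy 2.4.6, SciPy 1.17.1; figures with matplotlib 3.10.9).

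Replicate numbers recur in each condition, and nothing in the records says what they share. Deviations from the condition mean correlated above 0.1 in 30 of 30 same-numbered pairs (lowest 0.336, mean 0.581), so a fit with the replicate number as a block was used as an alternative and is given for member regions and genes where it changed a call. No library pair shared identical values. The number in the peak names of ERKi 4h replicate 1 is out of the order of the others; that library was among those left out in turn.

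The members, lists and alternatives were chosen with earlier results of these data known. The text names, for each comparison, up to 10 called regions with the largest change and up to 10 gained or lost regions, and for each gene its strongest distal region. Regions named beyond this, with values in the text, were chosen after their values were seen. Alternatives were another measure (fold enrichment), quantile normalization, peaks of -log10 q of at least 10, regions with a peak in at least 3 libraries, 500 bp windows around summits, other pseudocounts, distances and promoter widths, and each library left out. The local background as a measure and the alternatives of the ERKi difference between times were added after seeing the data, as was the distal signal without the peaks of promoter regions.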

Additional observations from a re-analysis of the deposited data

How the results depend on the processing

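The lists hold peaks that passed a threshold, so a weak region without a call has no value, and with 3 libraries per condition small changes could pass unseen. Of 379 values of single regions and genes under an alternative, 310 kept their direction and side of the threshold, 59 kept the direction and no longer passed, and 10 changed sign. Most of these values came from leaving out 1 library, often one outside the 2 conditions compared, where the change could hardly differ. Of 260 counts, 198 stayed within 1.5 times the value reported. All 10 changes of sign came with the fold enrichment as the measure. They were 4 of 4 calls at 4h, 4 of 7 at 24h and 2 of 3 with ERKi at 24h. There the local background moved more than the pileup. The log2 changes were then -0.32 at 4h and -0.52 at 24h at Sox4 +33.4 kb, -0.42 and -0.45 at Klf6 +25.8 kb, -0.049 and -0.35 at Klf6 +31.0 kb, -0.16 and -0.36 at Klf6 +32.2 kb, and with ERKi at 24h 0.34 at Sox9 +89.3 kb and 0.10 at Sox13 -53.3 kb. Of the 45 tested, called member regions numbered 4 at 4h, 7 at 24h, 0 with ERKi at 4h and 3 with ERKi at 24h. With the replicate block they were 15, 21, 5 and 9. With the fold enrichment they were 0 at 4h, 2 at 24h (both lower) and 0 with ERKi at 24h (0.141%, 4.19% and 0.958% of all). Some settings also changed the number tested. With peaks of -log10 q of at least 10, 31 member regions were tested. Of these 4 passed at 24h and 0 with ERKi at 24h (8.87% and 2.68% of all). With 500 bp windows 22 were tested, and 4 and 0 passed (10.6% and 3.97%). With regions in at least 3 libraries, absent peaks being filled at the 5th percentile, 82 were tested. There 12 and 6 passed (19.2% and 7.34%). The local background as the measure called 15 of 45 at 24h and 6 with ERKi at 24h (23.5% and 9.92%). Gained and lost regions numbered 8, 10, 3 and 6 in the 4 comparisons with 500 bp windows, and 0 with ERKi at 4h and 4 at 24h with the stricter peaks. For the distal signal, promoters of 2500 bp on either side gave 1 member at 4h and 2 with ERKi at 24h, as did leaving out the peaks of promoter regions (1 and 2), a distal peak in at least 1 library gave 1 at 24h, and with ERKi at 24h the replicate block gave 3 and both the number of peaks and 50 kb gave 0. Apart from the block, shares of all genes are not given for these settings, so the counts cannot be set against them. Pairs of gene and comparison without overlap in the number of distal peaks were 8 with the stricter peaks, and with the replicate block 10 moved one way in every replicate number, where the smallest sign-flip p is 0.25. The block gave 1 region in the test of ERKi between times. The causes of these differences were not tested. With each library left out in turn, called regions numbered 3 to 5, 7 to 9, 0 to 0 and 1 to 4 in the 4 comparisons, gained and lost regions 3 to 5, 4 to 13, 1 to 3 and 2 to 5, genes called by distal signal 0 to 0, 1 to 3, 0 to 0 and 0 to 2, pairs without overlap 5 to 8 and regions in the test between times 0 to 0.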
